A study of Mus musculus with 58 samples.

Results

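The cytosolic heat shock chaperones, a set of 10 genes, were followed through prefrontal cortex of young mice that carried a Kmt5b genotype label and had received a psychiatric drug or vehicle. The members were named by symbol and taken as rows of the deposited expression table: Hspa1a, Hspa1b, Hspa8, Hspa4, Hsph1, Hsp90aa1, Hsp90ab1, Dnajb1, Dnajb5 and Hspb1. All 10 were found among the 18088 genes of the table, and all 10 were among the 16669 genes tested, those averaging 10 or more normalised counts. The rule uses no measured value, but the set was proposed with earlier results of these data known.

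The 58 libraries came from C57BL/6J mice, either labelled heterozygous for Kmt5b (HT) or wild-type (WT). Kmt5b encodes a histone H4 lysine methyltransferase. Pups had been given lithium, fluoxetine (a serotonin reuptake inhibitor) or vehicle through their mother's milk for 3 weeks, from postnatal day 3 to 24, and cortex was collected on day 25. There were 10 libraries each of HT lithium, HT fluoxetine, HT vehicle, WT fluoxetine and WT vehicle, and 8 of WT lithium, with females and males in equal numbers. The labels name no litter, and libraries from 1 litter would not be independent samples. They also do not say which part of Kmt5b the allele removes. Kmt5b averaged 1734 ± 98.3 in HT-labelled libraries (SD, n = 30) and 1654 ± 137 in WT libraries (SD, n = 28), so its RNA was not lower in the libraries labelled HT, and every statement on genotype below rests on the labels alone.

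Cytosolic chaperones keep proteins folded and return damaged ones to their native shape. Hsp70 proteins bind exposed stretches of a client in a cycle of ATP hydrolysis that J-domain proteins start and Hsp110 proteins reset, and Hsp90 proteins take over partly folded clients such as kinases and steroid receptors. Heat shock factor 1 binds repeats of the heat shock element when unfolded proteins gather and drives the inducible members, whereas constitutive members are abundant in neurons at rest. Small heat shock proteins such as Hspb1 hold unfolding proteins in a soluble state without ATP.

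Sequence enters the results in 2 ways, through the near-identical Hspa1a and Hspa1b copies and through the heat shock element. Both copies lie on the minus strand of chromosome 17 (GRCm38), Hspa1a at 34969190 to 34972156 and Hspa1b at 34956436 to 34959238, and each is a gene without introns. Their coding sequences, 1923 and 1926 bases long, differed by 10 base changes, insertions included, which is an identity of 99.5%. Of the 31-base words in the Hspa1a transcript, 63.8% also occurred in Hspa1b, and of those in Hspa1b 67.6% occurred in Hspa1a (GENCODE M21). Shared words were also frequent in Hspa8 (43.5%), Hsp90aa1 (51.4%) and Hspb1 (52.3%), mostly with pseudogenes, so levels of these genes are uncertain to the extent that reads were assigned among copies. Reads from the stretch shared by Hspa1a and Hspa1b were divided between the copies by the authors' quantification, so the split between them is uncertain and their sum is given too. The 250 bases upstream of the start sites differed at 3 positions. They are printed below with the pair of facing heat shock units, GAANNTTC, in capitals where it occurs, together with Hspb1, which holds it more than once, and Dnajb5, the member that separated the drugs (RefSeq windows, GRCm38.p6, 5′ to 3′ on the gene's strand).
Hspa1a, chr17:34972157-34972406, minus strand: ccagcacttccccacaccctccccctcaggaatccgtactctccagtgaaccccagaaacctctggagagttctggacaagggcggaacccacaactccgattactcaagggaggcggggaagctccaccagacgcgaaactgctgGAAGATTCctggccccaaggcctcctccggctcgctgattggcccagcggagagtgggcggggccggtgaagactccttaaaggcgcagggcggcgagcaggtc
Hspa1b, chr17:34959239-34959488, minus strand: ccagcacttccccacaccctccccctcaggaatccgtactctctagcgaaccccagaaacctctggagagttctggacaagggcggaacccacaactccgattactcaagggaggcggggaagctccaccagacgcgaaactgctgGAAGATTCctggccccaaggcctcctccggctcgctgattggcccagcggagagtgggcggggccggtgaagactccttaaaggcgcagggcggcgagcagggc
Hspb1, chr5:135887669-135887918, plus strand: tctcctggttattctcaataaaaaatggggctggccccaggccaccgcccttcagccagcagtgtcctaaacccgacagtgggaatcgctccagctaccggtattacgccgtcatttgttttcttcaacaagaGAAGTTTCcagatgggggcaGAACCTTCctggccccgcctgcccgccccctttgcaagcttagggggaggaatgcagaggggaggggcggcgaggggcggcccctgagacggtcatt
Dnajb5, chr4:42949617-42949866, plus strand: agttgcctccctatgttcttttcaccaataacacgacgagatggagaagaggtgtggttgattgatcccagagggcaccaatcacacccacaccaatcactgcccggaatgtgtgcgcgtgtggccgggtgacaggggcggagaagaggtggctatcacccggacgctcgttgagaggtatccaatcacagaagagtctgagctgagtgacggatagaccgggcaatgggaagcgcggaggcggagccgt

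The match in Hspa1a and in Hspa1b began 104 bases before the start site, and those in Hspb1 began 117 and 97 bases before it. Both strands were searched, and GAANNTTC reads the same on either. The opposite arrangement of the pair, TTCNNGAA, was found 33 bases before the most upstream start of Hsph1, with no overlap between the motifs in any member. Promoter windows were at hand for 7 of the 10 members. The windows of Hspa4, Dnajb1 and Dnajb5 held neither arrangement, which says only that these letters are not in these 250 bases. Among all 32851 RefSeq windows of the same length, 6.69% held GAANNTTC, 7.17% held TTCNNGAA and 12.8% held at least 1 of them. The TATA motif TATAAA was in 12.4% of all windows and in none of the members' windows. A match is a description of the sequence and not evidence that a factor was bound.

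**Figure D1:**
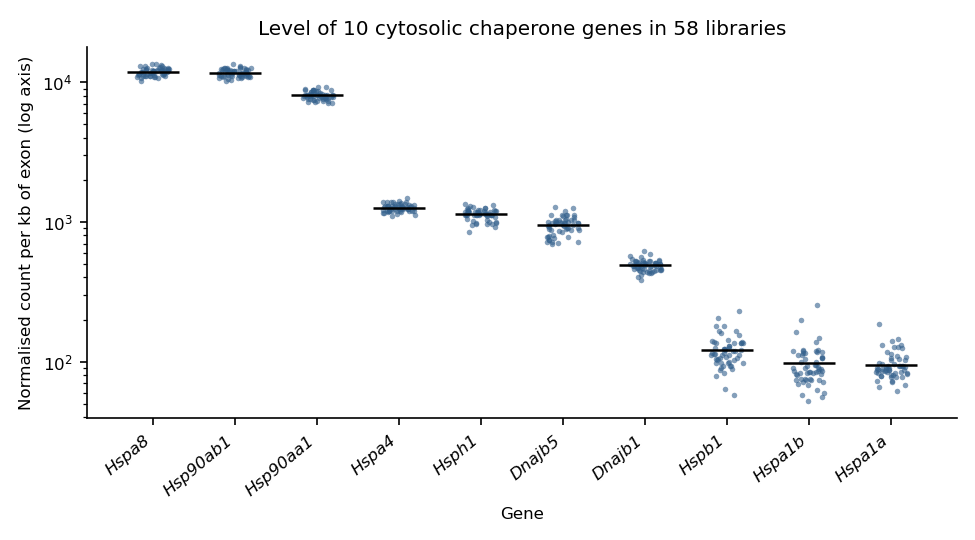
Normalised count per kilobase of exon (log axis) of the 10 genes, 1 point per library (58 libraries), with the mean as a bar. Hspa8 and the Hsp90 genes average between 8043 and 11873 per kb, and Hspb1, Hspa1b and Hspa1a average between 95.2 and 121 per kb.

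The members spanned the table, with Hspa8 and both Hsp90 genes among its most abundant RNAs and Hspb1, Hspa1b and Hspa1a near its middle. Per kilobase of exon, Hspa8, the constitutive Hsp70 that also strips clathrin from vesicles, averaged 11873 normalised counts and ranked 40 of 18077 genes. Hsp90ab1, the constitutive Hsp90, averaged 11684 per kb and ranked 41, and Hsp90aa1, the more inducible Hsp90 isoform, averaged 8043 per kb and ranked 73. Hspa8 exceeded Hsp90ab1 in 38 of 58 libraries, so the order of these neighbours was not fixed, whereas Hsp90ab1 exceeded Hsp90aa1 in 58 of 58.

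The exchange factors and J-domain proteins formed a middle tier. The Hsp110 family member Hspa4 averaged 1266 per kb, and Hsph1, the heat-inducible Hsp110, averaged 1132 per kb. Hspa4 was higher in 56 of 58 libraries. Dnajb5 averaged 945 per kb and was below Hsph1 in 50 of 58 libraries, and Dnajb1, the main inducible J-domain partner of Hsp70, averaged 488 per kb. The lowest tier held Hspb1 at 121 per kb, Hspa1b at 97.3 per kb and Hspa1a at 95.2 per kb. Hspa1b exceeded Hspa1a in 27 of 58 libraries, so their order is uncertain, as is the split of reads. The plot of levels per kb shows these tiers without overlap between the first 3 genes and the rest.

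Spread followed the same division only in part, since Hspa4 of the middle tier varied as little as the most abundant genes. Within the 12 groups of genotype, treatment and sex, the SD on the log2 scale was 0.08 for Hspa8, Hspa4, Hsp90aa1 and Hsp90ab1. It was 0.11 for Dnajb1, 0.13 for Hsph1 and 0.13 for Dnajb5. It reached 0.22 for Hspa1a, 0.33 for Hspb1 and 0.36 for Hspa1b. Smaller differences could therefore be resolved for the abundant members than for these 3.

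Reads assigned to genes of the table, as recovered from the steps of the deposited values, numbered 23.5 M to 38.6 M per library (M for mega, median 27.6 M). This range covers all 58 libraries, with the 4 whose step lies close to 1 among them. The sex genes went against the sex label in 0 of 58. All 8 markers of cortical excitatory neurons were detected, with a summed level between 68119 and 122487. Markers of the neighbouring olfactory bulb were present too and varied widely, from a summed level of 95.8 to 10513 over 4 genes, and 10 libraries had a low bulb level (below -1 as a mean z score). These were 3 each of HT lithium, HT fluoxetine and WT vehicle, 1 of WT fluoxetine, and 0 each of HT vehicle and WT lithium. Where the libraries differ in the cells they hold, a change in cells and a change in RNA per cell cannot be told apart in bulk tissue.

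Drug effects were asked first in HT-labelled mice given fluoxetine. In these mice 3 members fell relative to vehicle and 0 rose: Hspa1a, the inducible Hsp70, Dnajb5, a J-domain co-chaperone, and Hsp90ab1. Over all genes tested, 5.96% fell and 6.84% rose at the same threshold, a Benjamini-Hochberg adjusted p under 0.05 in limma. The median log2 difference of the 10 members was -0.10, against -0.00316 over all genes, and 8 of the 10 were negative.

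**Figure D2:**
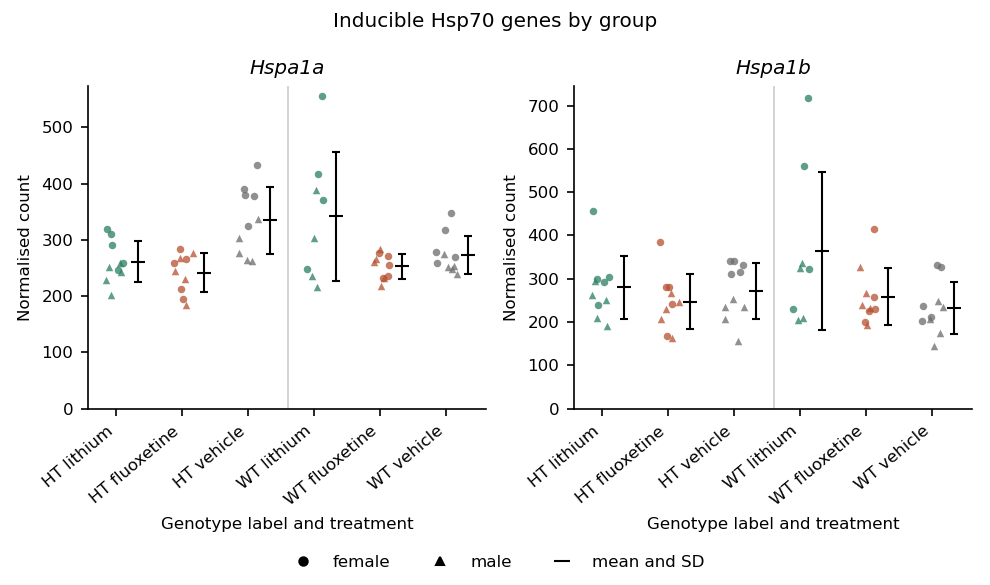
Normalised counts of Hspa1a and Hspa1b in every library by genotype label and treatment, with circles for females, triangles for males and the mean ± SD of each group beside them. Hspa1a lies between 183 and 283 in HT fluoxetine and between 262 and 434 in HT vehicle, and the highest values of both genes, 555 and 717, come from 1 WT lithium female.

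Hspa1a had normalised counts of 183 at the lowest, 252 at the median and 283 at the highest in HT fluoxetine, against 262, 330 and 434 in HT vehicle. All 10 HT fluoxetine libraries lay below the HT vehicle median and 6 lay below its lowest value. The log2 difference was -0.46 or 0.726-fold (95% confidence interval -0.65 to -0.27 on the log2 scale, SE 0.0954; adjusted p 0.00124 by limma). The call held in all 13 other settings and in the 20 fits that left out 1 library of the compared groups, with adjusted p-values from 0.000569 to 0.0116. In females alone the difference was -0.65 and in males alone -0.27. The HT vehicle females were the high ones, at 381 ± 39.2 (SD, n = 5), where HT vehicle males averaged 288 ± 31.7 (SD, n = 5).

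Hspa1b, the other inducible copy, did not pass, with a log2 difference of -0.14 (95% confidence interval -0.45 to 0.17; adjusted p 0.577 by limma). The sum of both copies averaged 489 ± 84.7 in HT fluoxetine and 607 ± 117 in HT vehicle (SD, n = 10 each). Its log2 difference of -0.31 passed a two-sided permutation test within sex (100000 resamples, p = 0.00581, adjusted over 4 comparisons 0.0232). The adjusted p of the sum went to 0.0522 without HT fluoxetine male 3 and to 0.0509 without HT vehicle male 1.

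Dnajb5 (chromosome 4, 42949814 to 42959425) had normalised counts of 4103, 4338 and 5447 (lowest, median, highest) in HT fluoxetine, against 5266, 5881 and 6651 in HT vehicle. Of the 10 HT fluoxetine libraries 8 were below the lowest HT vehicle library. The log2 difference was -0.36 (SE 0.0575, adjusted p 0.000107 by limma), a fold of 0.782. It held in all 13 other settings and in each of the 20 fits without 1 library.

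Hsp90ab1 (chromosome 17, 45567775 to 45573271) averaged 34338 ± 2245 in HT fluoxetine and 36944 ± 1476 in HT vehicle (SD, n = 10 each). The log2 difference of -0.11 had an SE of 0.037 and an adjusted p of 0.0458 by limma. The groups overlapped, with 3 HT fluoxetine libraries below the lowest HT vehicle library. The call was lost with DESeq2 (adjusted p 0.144) and edgeR (0.183) on recovered reads, in limma on the 54 libraries those count tests used (0.173), with the compared groups alone (0.102) and without the 10 libraries of low bulb level (0.0615). It was also lost without any of 14 libraries (adjusted p 0.0548 to 0.114): HT fluoxetine females 1 to 4 and males 1, 3 and 4, and HT vehicle females 3 to 5 and males 1, 3, 4 and 5. Hspa8 (chromosome 9, 40800984 to 40810087), with a log2 difference of -0.10, had an adjusted p of 0.0655, which was 0.0305 to 0.0452 without HT fluoxetine female 5 or HT vehicle male 2. Hspa4, Hsph1 and Dnajb1 had log2 differences of -0.07, -0.10 and -0.11 with adjusted p-values of 0.153, 0.247 and 0.139. Hsp90aa1 and Hspb1 were at 0.01 and 0.06 (adjusted p 0.949 and 0.807).

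In WT mice given fluoxetine 1 member, Dnajb5, fell and 0 rose. Over all genes 3.41% fell and 3.98% rose. Dnajb5 counts were 4392, 4920 and 5366 (lowest, median, highest) in WT fluoxetine, against 4812, 5723 and 6681 in WT vehicle. All 10 WT fluoxetine libraries were below the WT vehicle median, and 5 were below its lowest value. The log2 difference was -0.22 (SE 0.0575, adjusted p 0.0146 by limma), and it passed in every one of the 13 other settings and 20 fits without 1 library. Hspa1a had 217, 258 and 284 in WT fluoxetine, against 239, 264 and 347 in WT vehicle, a log2 difference of -0.11 (adjusted p 0.489). The 95% confidence interval of -0.30 to 0.08 includes both no change and a fall of moderate size. The summed copies differed by 0.02 (log2; permutation p = 0.849, adjusted 0.849).

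In HT-labelled mice given lithium 3 members fell and 0 rose, against 6.61% of all genes lower and 7.46% higher. They were Hspa1a, Hspa8 and Hsp90ab1. Both drug groups were compared with the same HT vehicle libraries, so their differences are not independent of each other. Hspa1a counts were 202, 255 and 318 in HT lithium, against 262, 330 and 434 in HT vehicle, and 7 of 10 HT lithium libraries lay below the lowest HT vehicle library. The log2 difference was -0.35 (SE 0.0954, adjusted p 0.0104 by limma), a fold of 0.785. The call was lost with edgeR on the 54 libraries with recovered reads (adjusted p 0.0517) and kept with DESeq2 (0.0374). Within each sex the Hspa1a difference was -0.42 in females and -0.28 in males (adjusted p 0.0469 and 0.364 by limma).

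Hspa8 averaged 49023 ± 2620 in HT lithium and 53316 ± 2976 in HT vehicle (SD, n = 10 each), and all 10 HT lithium libraries lay below the HT vehicle median. Its log2 difference of -0.12 (SE 0.0374) had an adjusted p of 0.0237 by limma, 0.0714 by DESeq2, 0.108 by edgeR, 0.117 in limma on 54 libraries and 0.0808 with quantile normalisation. The call was lost too without HT lithium female 5, HT lithium male 2 or HT vehicle male 1 (adjusted p 0.0508 to 0.0539). Hsp90ab1 averaged 33499 ± 1520 in HT lithium and 36944 ± 1476 in HT vehicle (SD, n = 10 each), with 5 HT lithium libraries below the lowest HT vehicle library. Its log2 difference was -0.14 (SE 0.037, adjusted p 0.0077 by limma, and 0.0528 in limma on 54 libraries). Dnajb5, low under fluoxetine, was not low under lithium, at 6114 ± 488 in HT lithium and 5887 ± 352 in HT vehicle (SD, n = 10 each; log2 difference 0.05, adjusted p 0.576 by limma). Hspa1b, the near-identical copy, was not called, with log2 differences of -0.07 in females and 0.16 in males (adjusted p 0.868 and 0.813 by limma). The sum of Hspa1a and Hspa1b averaged 541 ± 101 in HT lithium and 607 ± 117 in HT vehicle (SD, n = 10 each). The sum had a log2 difference of -0.16, with a permutation p of 0.0516, adjusted 0.0689. It passed without HT lithium female 4, HT lithium male 2 or HT vehicle male 3 (adjusted p 0.0205, 0.0424 and 0.0315).

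**Figure D3:**
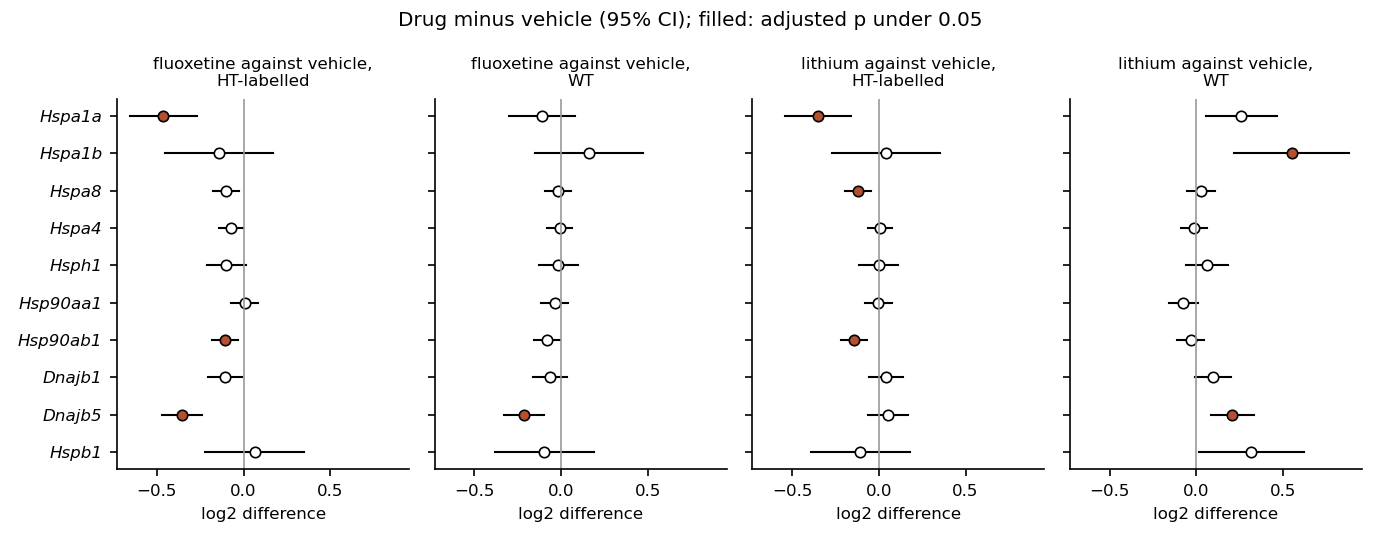
Log2 difference, drug minus vehicle, with its 95% confidence interval for the 10 genes in each genotype label, filled where the adjusted p over all genes is under 0.05. Dnajb5 is filled in both fluoxetine panels at -0.36 and -0.22, and Hspa1a is filled in both HT-labelled panels at -0.46 and -0.35.

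Tissue measures differed between the groups under both labels. In WT mice the bulb level averaged 0.12 ± 1.02 with fluoxetine, 0.25 ± 0.454 with lithium and -0.34 ± 1.17 with vehicle (SD, n = 10, 8 and 10). Mitochondrially encoded RNA made up 7.39%, 7.33% and 7.90% there, in the same order. Both measures moved the other way in the HT-labelled comparisons. Mitochondrially encoded RNA made up 7.97% ± 0.657 in HT fluoxetine, 7.66% ± 0.746 in HT lithium and 6.75% ± 0.66 in HT vehicle (SD, n = 10 each). Of the 4 bulb markers 0 passed in either comparison, with summed levels of 157 to 10513 in HT fluoxetine, 137 to 5383 in HT lithium and 1218 to 6740 in HT vehicle. All 4 were lower than in HT vehicle, with log2 differences of -1.34 to -1.78 for fluoxetine and -1.10 to -1.51 for lithium. The bulb level (mean z score) averaged -0.31 in HT fluoxetine, -0.17 in HT lithium and 0.50 in HT vehicle. Of 6 oligodendrocyte markers, 4 (Mal, Ermn and Mog among them) rose with fluoxetine and 0 with lithium, with summed levels of 68520 to 160259 in HT fluoxetine, 64760 to 95442 in HT lithium and 51574 to 111584 in HT vehicle. No marker of these lists or the next ones was at 0 in all 58 libraries.

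Other cell types had calls as well, and the markers are named here after their values were seen. Of 6 microglia markers, P2ry12 and Cx3cr1 rose with fluoxetine (log2 differences 0.30 and 0.17) and 0 passed with lithium, with summed levels of 5970 to 7798 in HT fluoxetine, 5807 to 6376 in HT lithium and 5876 to 7138 in HT vehicle. Of 6 astrocyte markers, 1, Gjb6, rose with fluoxetine (0.38) and with lithium (0.50), and the sums were 46657 to 54511 in HT fluoxetine, 45327 to 51163 in HT lithium and 44155 to 50366 in HT vehicle. Of 6 markers of inhibitory neurons, Slc32a1 fell with fluoxetine (-0.25) and Pvalb rose with lithium (0.49), and the sums were 18223 to 26773 in HT fluoxetine, 18602 to 24764 in HT lithium and 19998 to 25081 in HT vehicle. Of 7 endothelial and mural markers, Ly6c1 rose with fluoxetine (0.25) and with lithium (0.29), and Pdgfrb and Cldn5 fell with lithium (-0.29 and -0.37). Their sums were 4699 to 6401 in HT fluoxetine, 4745 to 5557 in HT lithium and 4733 to 6242 in HT vehicle. None of the 8 markers of excitatory neurons passed with either drug in HT-labelled mice by limma.

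With the bulb level as a covariate, 6 members fell with fluoxetine in HT-labelled mice, Hspa8, Hsph1 and Dnajb1 being added, while the count over all 16669 genes went up as well, to 2201 lower and 1894 higher with the covariate, against 994 lower and 1140 higher without it. Without the 10 libraries of low bulb level, Hspa1a and Dnajb5 still passed there with Dnajb1 in place of Hsp90ab1, and the members called for lithium were the same 3. The part of mitochondrial RNA and of the other cell types in these results was not tested.

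In WT mice given lithium, 2 members, Hspa1b and Dnajb5, rose and 0 fell, against 1.95% of all genes higher and 1.39% lower. Hspa1b counts in WT lithium were 230, 324, 560 and 717 in females 1 to 4 and 211, 206, 325 and 337 in males 1 to 4. In WT vehicle they ran from 145 through a median of 224 to 332. Females 3 and 4 stood above every other library of the series. Male 4, at 337, also lay just above the highest WT vehicle library, and the remaining WT lithium libraries lay within the WT vehicle range. Males 3 and 4 were above all WT vehicle males, which reached 249. The log2 difference was 0.55 (SE 0.164, adjusted p 0.048 by limma), and 0.245 without those 2 females, a choice made after seeing the data (adjusted p 0.514).

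The same females were high in Hspa1a and Hspb1, which did not pass over the whole group. Hspa1a was 416 and 555 in females 3 and 4, against 239 to 347 in WT vehicle, and Hspb1 (chromosome 5, 135887919 to 135889563) was 238 and 212, against 90.3 to 184 in WT vehicle. Hspa1a also reached 389 among WT lithium males. Over all WT lithium libraries, Hspa1a had a log2 difference of 0.26 (adjusted p 0.162) and Hspb1 one of 0.32 (adjusted p 0.284), and Hspa1a passed without WT lithium female 1 (adjusted p 0.0148). These were the deepest sequenced WT lithium females, at 38.6 M and 37.7 M recovered reads, and their mitochondrial share was 6.54% and 5.33%, against 8.31% and 8.56% in WT lithium females 1 and 2. Female 3 also had the highest summed marker levels of the WT lithium libraries for astrocytes (59883, against 44664 to 50205 in WT vehicle), oligodendrocytes (126355, against 49746 to 166355), microglia (7985, against 6308 to 8075) and endothelial and mural cells (6641, against 4457 to 6683). Female 4 had 52229, 84504, 6739 and 5769 for the same lists. Of these markers, 1 of 6 for astrocytes rose with lithium in WT mice, and 0 passed for the other lists. The part of depth, RNA quality and cell types in the chaperone levels of these females was not tested. Dnajb5 was 7439 and 7641 in these females and 5829 to 6624 in the other 6 WT lithium libraries, against 4812 to 6681 in WT vehicle. Its log2 difference of 0.21 (SE 0.061, adjusted p 0.0428 by limma) became 0.14 without them (adjusted p 0.334).

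Both calls were close to the threshold. They were lost with limma without the trend (adjusted p 0.0581 for Hspa1b and 0.0517 for Dnajb5), in limma on 54 libraries (0.0641 and 0.0518), with the compared groups alone (0.18 and 0.127) and without the 10 libraries of low bulb level (0.0606 and 0.0714). Hspa1b was also lost with quantile normalisation (0.0589) and with no filter on low values (0.0509), and Dnajb5 with edgeR (0.0574), whereas DESeq2 kept both. Each call was lost in 10 of the 18 fits that left out 1 library. For Hspa1b these left out WT lithium females 3 and 4 and males 3 and 4 and WT vehicle females 1, 2 and 4 and males 1, 2 and 4 (adjusted p 0.0557 to 0.211). For Dnajb5 they left out WT lithium females 3 and 4 and males 2, 3 and 4 and WT vehicle females 1, 4 and 5 and males 4 and 5 (adjusted p 0.0644 to 0.147). The summed Hspa1 copies averaged 705 ± 292 in WT lithium (SD, n = 8) and 506 ± 80.9 in WT vehicle (SD, n = 10), with a permutation p of 0.0315, adjusted 0.063. It passed without WT lithium female 1, male 1 or male 2 (adjusted p 0.0123, 0.0275 and 0.0339).

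**Figure D4:**
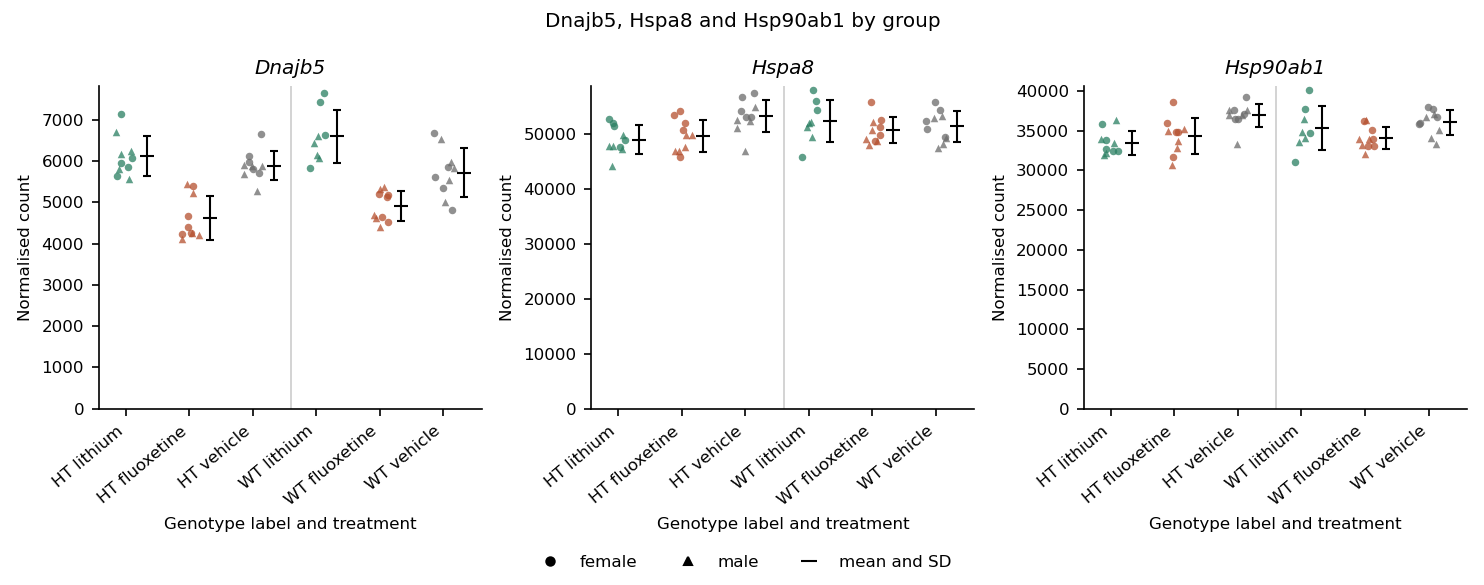
Normalised counts of Dnajb5, Hspa8 and Hsp90ab1 in every library by genotype label and treatment, with circles for females, triangles for males and the mean ± SD beside each group. Dnajb5 in lithium libraries, 5564 to 7143 in HT and 5829 to 7641 in WT, does not overlap fluoxetine libraries, 4103 to 5447 in HT and 4392 to 5366 in WT.

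Among the members, the drugs separated most cleanly on Dnajb5. Every lithium library exceeded every fluoxetine library of its genotype label. How many of all genes tested separate in this way was not counted. Dnajb5 had 5564, 6022 and 7143 (lowest, median, highest) in HT lithium, against 4103, 4338 and 5447 in HT fluoxetine, a log2 difference of 0.41 (SE 0.0575, adjusted p 4.2e-06 by limma). It had 5829, 6524 and 7641 in WT lithium, against 4392, 4920 and 5366 in WT fluoxetine, a log2 difference of 0.43 (SE 0.061, adjusted p 9.3e-06). Without WT lithium females 3 and 4 the WT value was 0.355 (adjusted p 0.00323). Dnajb5 was the member called in HT-labelled mice, where 3.52% of all genes were higher and 3.27% lower. In WT mice, where 2.55% were higher and 1.66% lower, Hspa1a passed as well, with 216 to 555 in WT lithium and 217 to 284 in WT fluoxetine (log2 difference 0.37, adjusted p 0.0262). That call was lost with the compared groups alone (adjusted p 0.157), without both WT lithium females (0.20, adjusted p 0.594), and also without WT lithium female 3 or 4, WT lithium male 3 or 4, or WT fluoxetine male 4 (adjusted p 0.0579 to 0.13). Dnajb1 (chromosome 8, 83608193 to 83612653) stood just outside the threshold in both, at 0.15 in HT-labelled mice (adjusted p 0.0515) and 0.16 in WT mice (adjusted p 0.0599). It passed in 6 of the 20 HT fits that left out 1 library (adjusted p 0.0204 to 0.0498) and in 4 of the 18 WT fits (0.00682 to 0.0437). Those left out HT lithium female 1 and male 4, HT fluoxetine females 1, 4 and 5 and male 3, WT lithium female 1, WT fluoxetine female 5 and WT fluoxetine males 2 and 3. Hspa4 passed in HT-labelled mice without HT lithium female 3 (adjusted p 0.0374), and in WT mice Hspa1b passed without WT lithium female 1 (0.0205) and Hspb1 without WT lithium female 1 or male 1 (0.0282 to 0.0406).

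Genotype was compared next. None of the 10 members differed between HT-labelled and WT libraries averaged over treatments by limma, where 0.468% of all genes did. At an unadjusted p under 0.05 there was 1 member, Hsp90aa1 (chromosome 12, 110690605 to 110702728), with a log2 difference of -0.06 (adjusted p 0.267). Of all 16669 genes tested, 1762 were under that unadjusted value. Members called also numbered 0 under vehicle (0.048% of all genes), under fluoxetine (0.612%) and under lithium (0.06%), with 2, 1 and 3 members at an unadjusted p under 0.05. Of all genes tested, 2035, 2319 and 1683 were under it in the same comparisons. edgeR and DESeq2 called 0 members in each of these 4 comparisons. Under vehicle Hspa1a was 335 ± 59.2 in HT-labelled mice and 274 ± 33.7 in WT mice (SD, n = 10 each; log2 difference 0.28, adjusted p 0.232). Under lithium it was 261 ± 36.3 in HT-labelled mice (SD, n = 10) and 342 ± 114 in WT mice (SD, n = 8), a log2 difference of -0.33 with an adjusted p of 0.214, and of 0.0137 without WT lithium female 1. The vehicle groups also differed in mean bulb level, at 0.50 in HT-labelled mice and -0.34 in WT mice. Their mitochondrial share was 6.75% and 7.90%, and its part in these values was not tested. The interactions below use the same vehicle groups.

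Whether drug effects differed between the genotype labels was tested as an interaction. Hspa1a had log2 differences of -0.35 in HT-labelled mice and 0.26 in WT mice with lithium. For lithium the interaction was -0.61 on the log2 scale (SE 0.139), with the smallest unadjusted p of the members, 5.92e-05 by limma's fit across all genes, and an adjusted p of 0.168. By limma 0% of all genes and 0 members passed, and 5 of the 10 members had an unadjusted p under 0.05. Of all 16669 genes tested, 2320 had one. Hspa1a passed without WT lithium female 1 (adjusted p 0.0143) or female 2 (0.0434), which held lower values than the other WT lithium females, and without females 3 and 4 together the interaction was -0.44 (adjusted p 0.906). For fluoxetine 0 members and 0.042% of all genes passed, with 1 member at an unadjusted p under 0.05, Hspa1a at -0.35 (adjusted p 0.328). Of all genes tested, 1858 were under that unadjusted value. edgeR and DESeq2 called 0 members for either interaction.

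Females had higher mean levels of all 10 members than males, but no difference passed over all genes by limma. The log2 differences ran from 0.03 for Dnajb5 to 0.38 for Hspa1b, against a median of -0.00172 over all genes. By limma 0 members passed (0.132% of all genes did), and 7 of the 10 had an unadjusted p under 0.05. Of all 16669 genes tested, 1376 had one. The smallest adjusted p-values were 0.0645 for Hspa1b (SE 0.0913) and 0.0944 for Hspa1a (log2 difference 0.23, SE 0.0562). On recovered reads edgeR called 0 members and DESeq2 called 3, Hspa1a (adjusted p 0.0274), Hspa1b (0.0298) and Hspa8 (0.035). Without WT lithium female 1, Hspa1a, Hspa1b and Hspa8 passed (adjusted p 0.0042, 0.00571 and 0.0445), and Hspa1b passed without any of 7 single libraries in all (adjusted p 0.00571 to 0.0499), WT lithium females 1 and 2 and male 4, HT fluoxetine female 3, WT fluoxetine male 5, WT vehicle female 2 and WT vehicle male 5. Hspa1a passed without WT lithium male 4 too (adjusted p 0.0187), and without WT lithium females 3 and 4 Hspa1b was at 0.28 (adjusted p 0.205). Drug effects did not differ between the sexes for any member by limma, with 0% of all genes called for fluoxetine and 0.018% for lithium and 1 member at an unadjusted p under 0.05 in each. Of all genes tested, 727 for fluoxetine and 1133 for lithium were under that unadjusted value. edgeR and DESeq2 also called 0 members there.

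**Figure D5:**
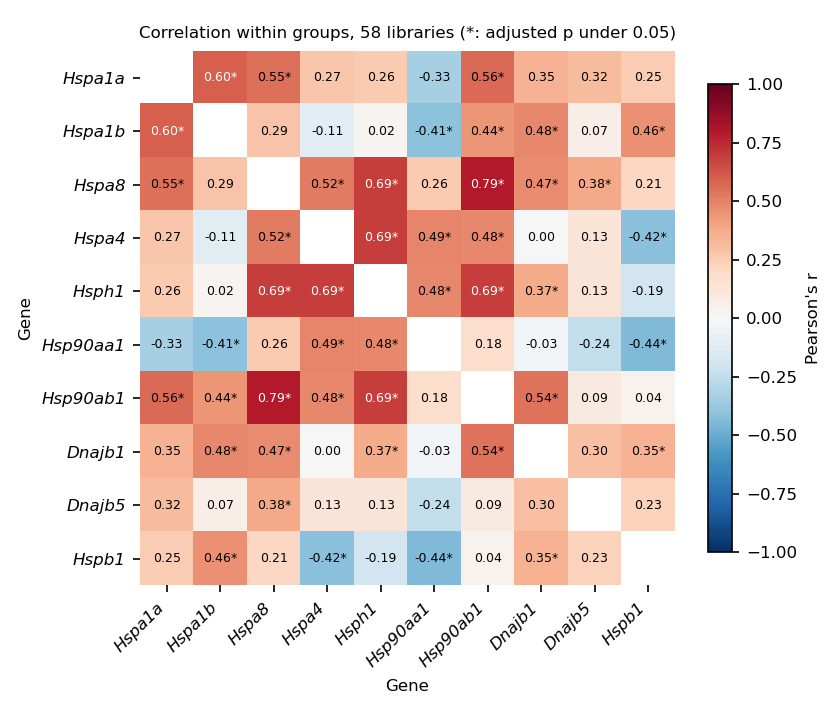
Pearson's r between members over 58 libraries after subtracting each of the 12 group means, with an asterisk where the adjusted permutation p over 45 pairs is under 0.05. The strongest pair is Hspa8 with Hsp90ab1 at 0.79, and Hsp90aa1 is negative with Hspb1 at -0.44 and with Hspa1b at -0.41.

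Within groups the members did not vary as a single block. Residuals from the 12 group means were correlated for the 45 pairs over 58 libraries, and 22 pairs passed a two-sided permutation test within groups (100000 resamples, Benjamini-Hochberg over 45 pairs), 19 with a positive r and 3 with a negative r. The libraries share 1 size-factor scaling and the mix of cells in each dissection. After the bulb level was removed, 18 pairs passed.

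Several abundant members went together, but not all of them. Hsp90aa1 did not pass with Hspa8 (r = 0.26, adjusted permutation p 0.155) or with Hsp90ab1 (r = 0.18, adjusted permutation p 0.356). It did pass with Hspa4 (r = 0.49) and with Hsph1 (r = 0.48). Hspa8 and Hsp90ab1 had Pearson's r = 0.79 and Spearman's rho = 0.75 (permutation p = 1e-05 for each, the smallest 100000 resamples can give; adjusted 0.000112 and 0.000225), and r was 0.72 without the 2 libraries farthest from the median of Hspa8. Hsph1 (chromosome 5, 149614287 to 149636376) had r = 0.69 and rho = 0.66 with Hsp90ab1 (adjusted permutation p 0.000112 and 0.000225), and r was 0.62 without its 2 farthest libraries. Hspa4 (chromosome 11, 53259814 to 53300457) and Hsph1, both of the Hsp110 family, had r = 0.69 and rho = 0.73 (adjusted permutation p 0.000112 and 0.000225), with r = 0.65 without the 2 farthest libraries.

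The inducible copies Hspa1a and Hspa1b had r = 0.60 and rho = 0.52 (permutation p = 0.00018 and 0.00042, adjusted 0.00107 and 0.00236), with r = 0.46 without the 2 farthest libraries, in a pair whose reads are divided by estimation. Hspa1b and Dnajb1 had r = 0.48 and rho = 0.40 (permutation p = 0.00319 and 0.00923, adjusted 0.00928 and 0.0244), with r = 0.39 without the 2 farthest. Hsp90aa1 was in 2 of the 3 pairs with a negative r that passed. With Hspb1 it had r = -0.44 and rho = -0.39 (permutation p = 0.0033 and 0.00761, adjusted 0.00928 and 0.0214), and r was -0.40 without the 2 farthest. With Hspa1b it had r = -0.41 and rho = -0.44 (permutation p = 0.00759 and 0.00378, adjusted 0.019 and 0.0113), and r was -0.38 without them. Hspa4 and Hspb1 had r = -0.42 and rho = -0.41 (permutation p = 0.00058 and 0.00245, adjusted 0.00245 and 0.00945), and r was -0.41 without the 2 farthest.

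Genes among the 3 most like each member over the same residuals were named as a description, with no test. For Hspa1a they were Ncdn (r = 0.70) and Tbrg4 (0.69). For Hspa8 they were Hsp90ab1 (0.79), Rrp1 (0.76) and the proteasome subunit gene Psmc3 (0.74). For Hsph1 they were Pak1, Cap2 and Blnk (0.85, 0.84 and 0.84), for Hsp90aa1 Ola1 and Dld (0.85 each) and for Dnajb1 Pmm1, Dtnbp1 and Hspbp1 (0.83, 0.81 and 0.80), the last an Hsp70 nucleotide exchange factor. Dnajb5 was most like Stk40 (0.70), Trib1 (0.65) and Midn (0.65), and only 0.557% of all genes had an r over 0.5 with it, against 13.6% for Dnajb1. Hspb1 was most like Sbk1, Tpd52l2 and Cotl1 (0.67, 0.62 and 0.61).

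The genes around the members in the chaperone network moved in parts. Of 14 Hsp90 co-chaperone genes, 1 rose and 3 fell with fluoxetine in HT-labelled mice (median log2 difference -0.07, against -0.00316 over all genes), and 3 rose and 4 fell with lithium there (median 0.01). Nudc, a co-chaperone of dynein complexes, fell by 0.19 with fluoxetine (log2, adjusted p 0.00348). Stip1, which bridges Hsp70 and Hsp90, fell by 0.15 with fluoxetine (adjusted p 0.00423). Cdc37, which brings kinases to Hsp90, fell with both drugs in HT-labelled mice, with log2 differences of -0.14 for fluoxetine and -0.18 for lithium. Fkbp5, a glucocorticoid-responsive co-chaperone of steroid receptors, rose with lithium in HT-labelled mice (0.71, adjusted p 0.000576) and in WT mice (1.02, adjusted p 1.98e-05), and with fluoxetine in WT mice (0.86, adjusted p 5.14e-05). In WT mice 2 of the 14 rose and 0 fell with each drug.

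Among 16 J-domain and other Hsp70 co-chaperone genes, 0 rose and 2 fell with fluoxetine in HT-labelled mice, Bag5 and Bag6 with log2 differences of -0.15 and -0.12, and 0 passed in WT mice. With lithium 2 rose and 2 fell in HT-labelled mice, and 1 rose and 2 fell in WT mice. Dnaja4 rose with lithium under both labels (0.13 in HT-labelled mice and 0.18 in WT mice), and the neuronal J-domain gene Dnajb2 fell under both (-0.22 in HT-labelled mice and -0.16 in WT mice). Of the 8 genes of the TRiC chaperonin, which folds actin and tubulin, 3 fell with fluoxetine and 4 with lithium in HT-labelled mice and 0 passed in WT mice. Cct3, Cct5 and Cct7 were among the calls of both drugs, with log2 differences of -0.12, -0.12 and -0.10 for fluoxetine.

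Heat shock factor genes and other families showed little. Hsf1, the main heat shock transcription factor, rose with fluoxetine in WT mice (0.14, adjusted p 0.0132), and Hsf5 rose with lithium in WT mice (0.95, adjusted p 0.0255). In HT-labelled mice 0 of the 6 genes of that list passed with either drug, and in WT mice each drug had 1 call. Of the 6 tested of 7 other Hsp70 and Hsp110 genes, Hspa4l rose (0.17) and Hspa2 fell (-0.16) with lithium in HT-labelled mice. None of the 7 other small heat shock protein genes and none of the 6 mitochondrial chaperone genes passed in the 4 drug comparisons by limma.

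Chaperones of the endoplasmic reticulum gave calls in 1 direction, higher with drug. With fluoxetine 3 of 10 rose in HT-labelled mice (median log2 difference 0.09, against -0.00316 over all genes) and 7 of 10 in WT mice (median 0.16, against -0.000913). With lithium 1 of 10 rose in HT-labelled mice (median 0.07) and 7 of 10 in WT mice (median 0.24). Hspa5, the Hsp70 of that compartment, rose in WT mice with fluoxetine (0.44, adjusted p 0.00011) and lithium (0.50, adjusted p 8.3e-05), and Dnajc3, its J-domain partner, rose in all 4 comparisons by 0.24 to 0.36.

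Immediate early genes, which neurons switch on within minutes of activity, were counted beside Dnajb5. With fluoxetine 17 of 20 fell in HT-labelled mice and 18 of 20 in WT mice, with median log2 differences of -0.66 and -0.80. Over all genes tested, 5.96% and 3.41% fell in the same comparisons. With lithium 3 of 20 fell in HT-labelled mice and 0 of 20 in WT mice. Against fluoxetine, lithium libraries were higher in 5 of 20 in HT-labelled mice and 10 of 20 in WT mice, where 3.52% and 2.55% of all genes were higher. Klf10, a transcription factor gene of this list, had log2 differences of -0.71 and -0.95 with fluoxetine in HT-labelled and WT mice. Dnajb5 had -0.36 and -0.22 in the same comparisons. No member of the list was among the 3 genes most like Dnajb5 within groups, which does not tell how Dnajb5 varied with the listed genes. A link between Dnajb5 and the list was not tested.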

How the data were processed

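RNA sequencing of prefrontal cortex was summarised by the authors as 1 table of normalised counts (signal values), which per the submitters' processing notes involved DESeq2 1.19.11 under R 3.6.0, Salmon 0.11.2 and GRCm38. The annotation release and the counting settings are not given in the sources used here. In all 58 deposited columns 100% of the signal values were whole multiples of 1 step within 0.01, which gave the depth. In 4 of them (HT lithium male 3, HT vehicle female 2 and HT vehicle males 1 and 5) the step lies so close to 1 that scaled and unscaled counts are hard to tell apart, and count tests used the other 54. The members and lists were chosen with earlier results of these data known. Every member was named, with up to 4 called genes of smallest p from each list and comparison and the 3 genes most like each of 7 members, some of which are not reported here.

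Values were tested with limma 3.58.1 (trend, R 4.3.3) on log2(value + 1), so that fold changes of low genes are understated, over 16669 genes with a mean of at least 10. The fit had 12 groups of genotype, treatment and sex, with sexes averaged and Benjamini-Hochberg adjustment over all genes. edgeR 4.0.16 and DESeq2 1.42.0 were run on the recovered counts as alternatives, and 100000 resamples were drawn for permutation tests. The scripts were checked on simulated data. Labels do not show that libraries of a group come from separate litters, so p-values measure the spread between these libraries.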

Additional observations from a re-analysis of the deposited data

Results flagged for a closer look

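Of 60 sets of libraries (10 members in 6 groups of genotype and treatment), 5 held a library far from the others by Dixon's 95% critical value, where chance gives about 1 in 20. Hspa1b was 456.7 in HT lithium female 4, with the next library at 303.1, and 384.6 in HT fluoxetine female 2, with the next at 280.3. Dnajb1 was 1816.5 in HT lithium female 4, with the next at 1687.1. Hsp90ab1 was low in HT vehicle male 2, at 33371.1 with the next at 36468.7. Hsph1 was low in WT lithium female 1, at 7117.8 with the next at 8494.6.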

How the results depend on the processing

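Over 6542 member values recomputed under other settings, 124 changed their side of the threshold, 0 reversed among called values and 217 changed sign among values not called. For fluoxetine in HT-labelled mice, against 3, there were 6 members with the bulb level as a covariate, 4 with quantile normalisation and with a mean of at least 100, and 2 with the 54 libraries, with the compared groups alone, with edgeR and with DESeq2. For lithium in WT mice, against 2, there was 1 with quantile normalisation, with no filter on low values and with edgeR, and 0 with limma without the trend, with the 54 libraries of the count tests, with the compared groups alone, without WT lithium females 3 and 4 and without the 10 libraries of low bulb level. For lithium in HT-labelled mice, against 3, there was 1 with the 54 libraries and with edgeR, and 2 with quantile normalisation and with DESeq2. For lithium against fluoxetine in WT mice, against 2, there was 1 with the compared groups alone and without both WT lithium females, 4 with DESeq2, and 3 with the covariate and without the 10 libraries. In HT-labelled mice, against 1, there were 2 with a mean of at least 100 and with the covariate. For females against males, against 0, there was 1 with the covariate and 3 with DESeq2. The exclusions of those females and of the 10 libraries were chosen after seeing the data. The causes were not tested.

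Leaving out 1 library gave 2 to 4 members for fluoxetine and 2 to 3 for lithium in HT-labelled mice, 1 to 1 for fluoxetine and 0 to 3 for lithium in WT mice, and 1 to 2 in HT-labelled and 1 to 5 in WT mice for lithium against fluoxetine. It gave 0 to 1 for genotype under lithium and for the genotype by lithium interaction, and 0 to 3 for sex. The summed Hspa1 copies ranged from -0.351 to -0.257 for fluoxetine and -0.208 to -0.135 for lithium in HT-labelled mice, and from -0.035 to 0.055 and 0.284 to 0.519 in WT mice.

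Same-numbered libraries did not deviate together (median r -0.025 over 140 pairs, and 0.0037 over 560 pairs of other numbers). With the replicate number as a block, 2 members passed for fluoxetine in HT-labelled mice and 1 for lithium in WT mice, the other counts being the same as without the block. With the bulb covariate 4095 genes passed for fluoxetine in HT-labelled mice, against 2134.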
